A study of Homo sapiens with 145 samples.

Results

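The genes described here are the nuclear-encoded subunits of the mitochondrial respiratory chain and ATP synthase. They were chosen by symbol: NDUFA, NDUFB, NDUFC, NDUFS and NDUFV genes of complex I, SDHA to SDHD of complex II, UQCR genes of complex III, COX4I to COX8A genes of complex IV, and ATP5F, ATP5M and ATP5P genes of complex V. Of 83 protein-coding genes with such symbols in RefSeq, 76 had a probe set naming 1 gene, and 71 of them reached a log2 value of 4 on at least 5 arrays, out of 12070 genes kept by the same filter. The 71 members comprise 33 genes of complex I, 3 of complex II, 7 of complex III, 11 of complex IV and 17 of complex V. Each gene was represented by its probe set with the highest mean.

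Large assemblies in the inner mitochondrial membrane carry out oxidative phosphorylation. Complexes I and II pass electrons from NADH and succinate to ubiquinone, complex III passes them on to cytochrome c, complex IV reduces oxygen, and complex V uses the proton gradient to make ATP. Most subunits are encoded in the nucleus, and a small catalytic core is encoded in mitochondrial DNA. The transcription factors NRF1, GABPA of the ETS family and YY1 are known to bind the promoters of many of the nuclear genes.

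The cells were HT-1080, an established human fibrosarcoma line, exposed for 24 h in medium with 0.1% DMSO. Etoposide (ETP), a topoisomerase II poison, was given at 0.003, 0.01, 0.03, 0.1, 0.3, 1 or 3 µM. Methyl methanesulfonate (MMS), an alkylating agent, was given at 1, 3, 10, 30, 100, 300 or 500 µM, and quercetin (QUE), a plant flavonol, at 1, 3, 10, 30, 60, 80 or 100 µM. Each chemical had its own vehicle group with DMSO alone, and all groups are of 1 cell line, with no other genotype. Of 145 arrays, 129 were used, in 24 groups of 5 or 6 replicates after arrays of the same group and number were averaged. The labels do not say whether replicates were separate cultures, so p-values measure the spread between these samples, which may be technical. In a lysate of a whole well, fewer cells of a type and less RNA per cell cannot be told apart.

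The ETP and QUE arrays numbered 2 were left out, since they respond like the other chemical. The array labelled ETP 3 µM number 2 had changes whose correlation across genes was 0.304 with those of the other ETP 3 µM arrays and 0.902 with those of QUE 100 µM. For the array labelled QUE 100 µM number 2 it was 0.387 with QUE and 0.89 with ETP. Their 71 members had a median change of -0.24 and 0.10. The QUE arrays numbered 3 also stood apart at the highest doses, as the member values below show, and the QUE 100 µM counts, and the named members that cross the threshold or move by much, are given with and without them. The upper quartile of an array's values was 5.68 to 6.01 for MMS arrays, 6.22 to 6.48 for QUE and 6.56 to 6.64 for ETP, so levels are not compared between chemicals, and changes are always against the chemical's own vehicle. All 8 mesenchymal markers reached 4 on every array, and all 5 epithelial markers stayed under 4.

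In the vehicle groups the members' mean signals ran from 8.98 to 12.60 (ETP), 8.48 to 12.25 (MMS) and 8.83 to 12.54 (QUE) on the log2 scale. Another 5 genes of the symbol list stayed under 4 on every array: COX4I2 (highest 3.28), COX6A2 (2.75), COX6B2 (3.49), COX7A1 (3.89) and COX7B2 (3.40). These are the isoforms known from lung, muscle, testis or other differentiated tissues. Among the genes not analysed here are NDUFS5 and NDUFA13, since their probe sets name several genes. NDUFA4 is now named COXFA4 and counted with complex IV, so its symbol falls outside the rule; it rose at ETP 3 µM (0.39, adjusted p = 0.000164) and did not pass at MMS 500 µM (0.02) or QUE 100 µM (0.14).

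A set of 6 promoters is shown, of the pair of genes that fell most with QUE and of 4 that hold a searched string before the start and moved in different directions. RefSeq promoters (GRCh38.p14) matched 61 of the 71 members, 52 of them with 1 promoter, and 3 strings were sought on both strands in the 250 bases before and 50 after the start: GCGCATGC (NRF1 type), CCGGAAGT (ETS type) and AAGATGGC (YY1 type). The NRF1 string was in 19.2% of the 52 member promoters, in 6.2% of those of 7002 tested genes with 1 promoter and in 3.05% of all 35116. The ETS string was in 15.4%, 10.2% and 4.14%, and the YY1 string in 17.3%, 6.34% and 2.89%. GCGCATGC and its reverse complement GCATGCGC can overlap. The 250 bases before the start are printed 5′ to 3′ on the gene's strand, with a string found in capitals; those of NDUFB10 and NDUFA3 hold none before the start. NDUFA3 and NDUFS7 hold the YY1 string after the start, at 22 and 18, in bases not printed. NDUFB10 (chr16:1959288-1959537, plus strand) and NDUFA3 (chr19:54102605-54102854, plus strand) fell most with QUE. ATP5F1C (chr10:7787927-7788176, plus strand) and NDUFS7 (chr19:1383657-1383906, plus strand) fell with MMS and QUE. COX6A1 (chr12:120437863-120438112, plus strand) rose with MMS and UQCR11 (chr19:1605463-1605712, minus strand) rose with ETP.
NDUFB10: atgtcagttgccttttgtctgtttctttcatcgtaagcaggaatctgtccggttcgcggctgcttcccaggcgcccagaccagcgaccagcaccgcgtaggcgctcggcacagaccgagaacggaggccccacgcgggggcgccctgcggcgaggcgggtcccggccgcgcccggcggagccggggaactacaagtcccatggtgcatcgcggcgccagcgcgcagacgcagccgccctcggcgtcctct
NDUFA3: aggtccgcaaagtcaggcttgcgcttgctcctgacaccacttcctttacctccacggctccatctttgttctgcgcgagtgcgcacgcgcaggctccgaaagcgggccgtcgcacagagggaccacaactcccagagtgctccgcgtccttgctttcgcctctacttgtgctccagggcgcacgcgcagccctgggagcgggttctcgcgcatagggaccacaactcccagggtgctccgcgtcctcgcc
ATP5F1C: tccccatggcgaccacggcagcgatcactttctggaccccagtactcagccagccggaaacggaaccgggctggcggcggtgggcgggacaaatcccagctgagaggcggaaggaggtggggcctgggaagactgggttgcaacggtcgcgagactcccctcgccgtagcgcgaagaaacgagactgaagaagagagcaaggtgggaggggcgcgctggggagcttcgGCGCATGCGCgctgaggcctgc
NDUFS7: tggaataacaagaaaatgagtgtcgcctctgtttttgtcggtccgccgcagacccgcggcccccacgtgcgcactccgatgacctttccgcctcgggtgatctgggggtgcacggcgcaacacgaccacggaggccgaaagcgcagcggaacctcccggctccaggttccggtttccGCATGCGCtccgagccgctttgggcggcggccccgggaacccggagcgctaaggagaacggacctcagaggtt
COX6A1: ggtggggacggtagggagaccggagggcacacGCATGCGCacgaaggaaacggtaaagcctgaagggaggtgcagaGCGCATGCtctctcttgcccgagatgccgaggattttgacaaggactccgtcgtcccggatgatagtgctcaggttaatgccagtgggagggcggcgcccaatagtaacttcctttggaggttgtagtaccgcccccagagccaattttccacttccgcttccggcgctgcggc
UQCR11: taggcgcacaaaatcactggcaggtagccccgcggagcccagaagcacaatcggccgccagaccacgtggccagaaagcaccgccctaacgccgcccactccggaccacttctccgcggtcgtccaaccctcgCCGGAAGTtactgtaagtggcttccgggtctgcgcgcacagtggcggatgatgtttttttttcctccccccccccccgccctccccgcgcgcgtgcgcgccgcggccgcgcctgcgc

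The NRF1 string stood before the start of 9 members and across the start of 1, and the YY1 string lay after the start of 8 and across it in 1. ATP5F1C holds the NRF1 string at -22 and, on the other strand, at -20, NDUFS7 at -73, and COX6A1 at -174 and -218, counted from the transcription start; UQCR11 holds the ETS string at -117. Members holding the NRF1 string moved in both directions: ATP5F1C changed by -0.52 and NDUFS7 by -0.86 at MMS 500 µM, and COX6A1 by 0.18. A match is a description of letters, not of binding.

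**Figure D1:**
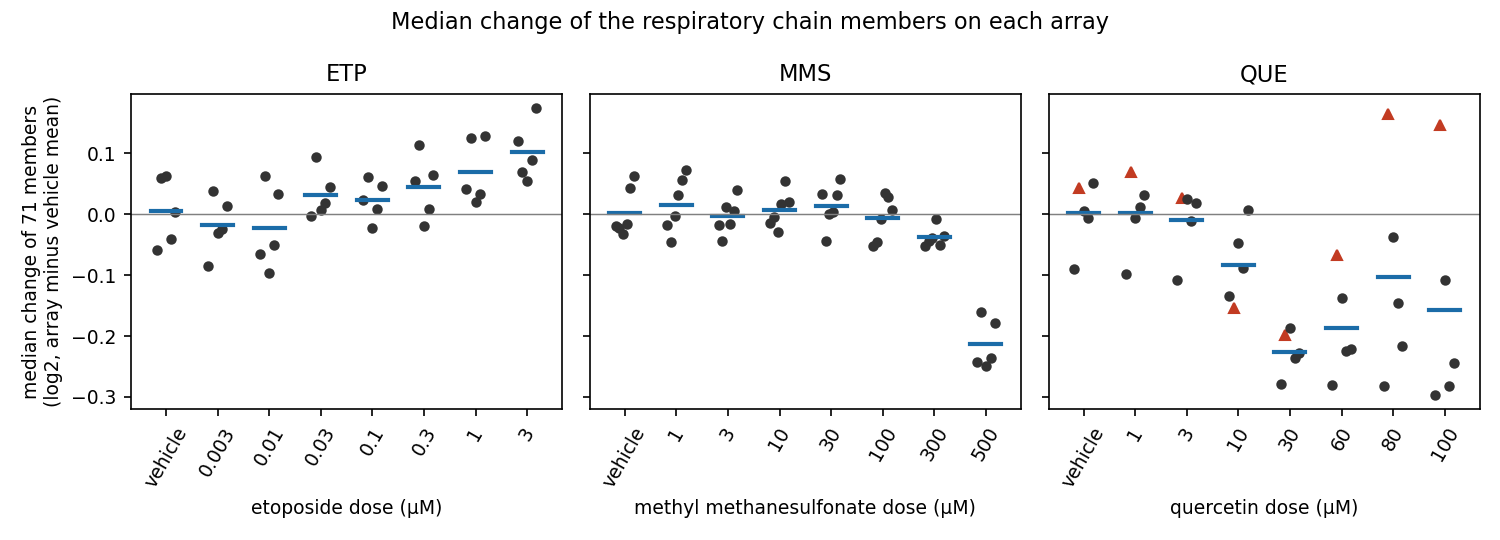
Median change of the 71 members on each array against the mean of its vehicle group (log2, y axis) by dose in µM (x axis) for ETP, MMS and QUE; points are arrays, bars are group means, and red triangles are the QUE arrays numbered 3. All 5 arrays at MMS 500 µM lie between -0.25 and -0.16, below the vehicle arrays, and the QUE arrays numbered 3 reach 0.16 and 0.15 at 80 and 100 µM.

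Nearly all of the movement was at the upper doses. ETP left the members' median change between -0.02 and 0.07 up to 1 µM, and 0 of 71 passed the test at 0.003 or 0.01 µM (0% of all genes in either direction, so 0 called) and at 0.03 µM (2.57% of all genes). At 0.1 µM 1 member rose and 0 fell (5.9% and 8.08% of all genes rose and fell), and at 0.3 µM 4 rose and 1 fell (11% and 8.72%). At 1 µM 15 rose and 1 fell (17.5% and 14.7%), which became 29 rises with a replicate block. At 3 µM 29 rose and 2 fell (20.9% and 20.5%), the falls 4 with the block. Shares of all genes were not counted in the fits with a block, here or below. Here and below, a member "rose" or "fell" when the limma fit across all 12070 genes gave a Benjamini-Hochberg adjusted p under 0.05, at any size of change, and "by 1.5-fold" adds that size.

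At ETP 3 µM the members rose by small amounts, with a median change of 0.10 against 0.01 over all genes, and none by 1.5-fold. Over all 12070 genes 754 rose and 835 fell by that size. The median was highest in complex II (0.25, 2 of 3 rose), followed by complex III (0.16, 5 of 7), complex I (0.10, 14 of 33 rose and 2 fell), complex IV (0.08, 3 of 11) and complex V (0.07, 5 of 17). In 4 of 5 arrays the median over members lay above every vehicle array (0.06, 0.07, 0.09, 0.12 and 0.17, against -0.06 to 0.06). Among genes at the members' vehicle levels (the middle of their range) 20.3% rose and 29.1% fell at this dose.

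NDUFV3, an accessory subunit of the NADH-oxidising module of complex I, stood at 9.75, 10.05, 10.09, 10.23 and 10.33 on the ETP 3 µM arrays and at 9.53, 9.54, 9.56, 9.66 and 9.71 on the vehicle arrays (log2 levels). Every dosed array lay above every vehicle array, a change of 0.49 ± 0.07 (SE; 5 and 5 arrays; limma adjusted p = 1.68e-06), or 1.4-fold. SDHA, the flavoprotein of succinate dehydrogenase, was at 10.68, 10.74, 10.77, 10.84 and 10.88 against 10.34, 10.43, 10.51, 10.54 and 10.62, also without overlap (0.29 ± 0.06, adjusted p = 9.4e-05). Its probe set is of a type (x_at) that can also read related sequences. UQCR11, a small subunit of complex III, was at 11.74, 11.74, 11.78, 11.85 and 11.98 against 11.20, 11.48, 11.49, 11.59 and 11.63 (0.34 ± 0.09, adjusted p = 0.00183), with no overlap. NDUFA8, a twin-cysteine subunit of complex I, stood at 10.22, 10.26, 10.28, 10.35 and 10.38 against 9.84, 9.93, 9.99, 10.09 and 10.23, where 1 vehicle array lay above the lowest dosed array (0.28 ± 0.06, adjusted p = 7.47e-05).

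NDUFA10, NDUFA11 and COX7A2L also rose at ETP 3 µM (0.33, 0.31 and 0.22), as did SDHC (0.25) and COX4I1 (0.13), the ubiquitous form of a regulatory complex IV subunit. With the mean of each gene's kept probe sets NDUFA10 (0.09, adjusted p = 0.394) and NDUFA11 (0.15, adjusted p = 0.103) no longer passed, nor did NDUFA11 (0.17, adjusted p = 0.186) and NDUFV3 (0.31, adjusted p = 0.131) with the arrays numbered 2 kept. Among members past the test, SDHA (0.20) and NDUFA8 (0.17) rose most at 0.3 µM, and NDUFA10 (0.34) and NDUFV3 (0.30) at 1 µM. From 0.3 to 3 µM 3 members rose further (NDUFV3 by 0.35, NDUFB9 by 0.18 and NDUFB3 by 0.14) and 0 fell, beside 5.51% and 8.54% of all genes. NDUFA9 (-0.18, adjusted p = 0.0217) and NDUFA6 (-0.13, adjusted p = 0.0211) fell at 3 µM, with SEs of 0.06 and 0.05. NDUFA6 no longer passed without number 3 (adjusted p = 0.0529) or 4 (0.0861) at 3 µM or vehicle number 1 (0.0586) or 4 (0.0681), nor NDUFA9 without number 3 at 3 µM (0.0618) or vehicle number 4 (0.129). NDUFS1, the large iron-sulfur subunit of complex I, was at -0.03 and NDUFV1, the flavoprotein, at 0.14, neither past the test. ATP5F1A, ATP5F1B and ATP5PF of ATP synthase (0.07, 0.08 and 0.08), SDHD (0.03), UQCRC1 (0.16), ATP5MC1 (-0.11) and COX5B (0.13) did not pass. The F-test over the 7 ETP doses passed 25 of 71 members, beside 38.3% of all genes.

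**Figure D2:**
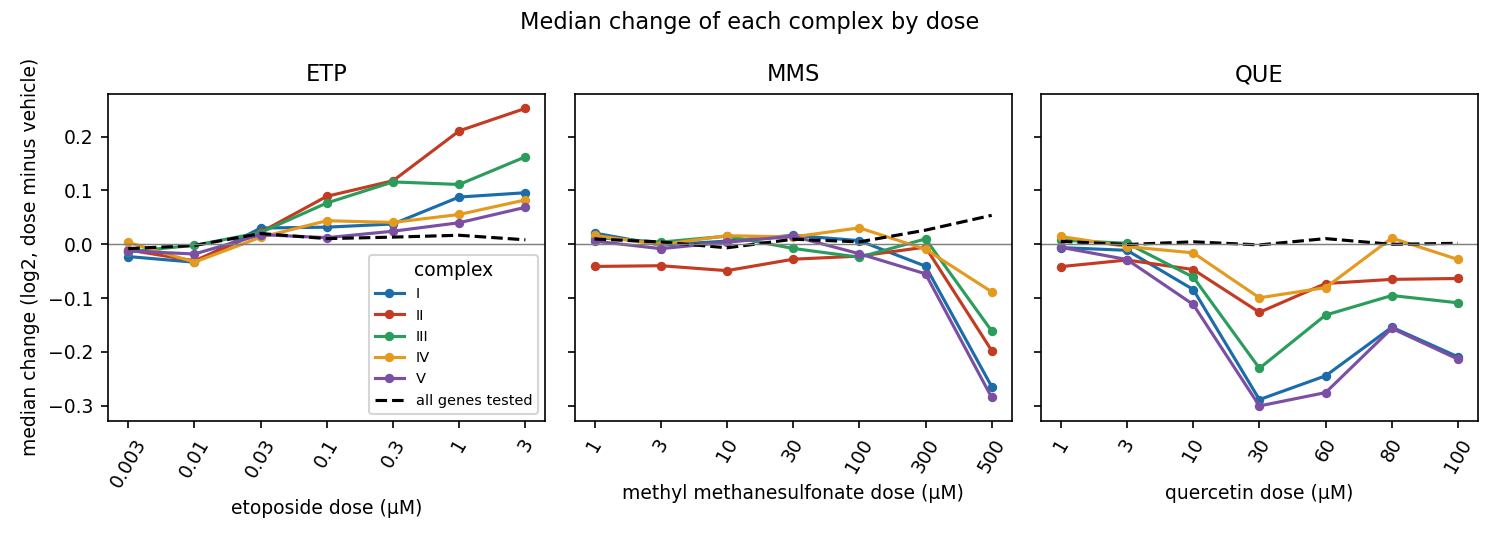
Median change of each complex (log2, dose minus vehicle, y axis) by dose in µM (x axis) for the 3 chemicals; lines are complexes, and the dashed line is all 12070 genes. Complexes I and V are lowest at MMS 500 µM (-0.26 and -0.28) and at QUE 30 µM (-0.29 and -0.30), and complex II is highest at ETP 3 µM (0.25).

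With MMS no member passed up to 100 µM: 0 of 71 passed at 1, 3, 10 or 30 µM (0% of all genes) and at 100 µM (4.08%). At 300 µM 3 rose and 12 fell (19.6% and 16.9% of all genes), the falls 19 with a replicate block. At 500 µM 40 fell and 5 rose (27.3% and 33.9%), and 8 fell by 1.5-fold (16.9%). Between 300 and 500 µM 42 members fell and 1, COX6A1, rose (21.2% and 24.3%). The median change at 500 µM was -0.21 over the members and 0.05 over all genes, and among genes at the members' vehicle levels 30.6% rose and 39.1% fell.

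All 5 MMS 500 µM arrays had a member median below every vehicle array (-0.25, -0.24, -0.24, -0.18 and -0.16, against -0.03 to 0.06). The median was -0.28 in complex V (12 of 17 fell, 0 rose), -0.26 in complex I (20 of 33 fell, 3 rose), -0.20 in complex II (2 of 3 fell), -0.16 in complex III (4 of 7 fell) and -0.09 in complex IV (2 of 11 fell, 2 rose). Members with lower vehicle levels fell more: the median was -0.31 in their lower part by level and -0.14 in the upper. At QUE 100 µM these medians were -0.23 and -0.11. The part of level in the order of the complexes was not tested. The F-test over the 7 MMS doses passed 41 of 71 members, beside 59.3% of all genes.

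ATP5F1D, the delta subunit of the ATP synthase central stalk, stood at 7.25, 7.36, 7.51, 7.61 and 7.77 at MMS 500 µM, and the 6 vehicle arrays ran from 8.28 through a median of 8.55 to 8.70. The groups lay apart, and the fall was 1.02 ± 0.10 on the log2 scale (a change of -1.02, 2.02-fold lower, adjusted p = 2.78e-12). UQCRC1, a core subunit of complex III, was at 8.09, 8.31, 8.35, 8.43 and 8.54 against 9.03 to 9.50 with a median of 9.38 (-0.98 ± 0.12, adjusted p = 1.29e-09). NDUFA3, an accessory subunit of complex I, was at 7.69, 7.79, 7.89, 7.96 and 8.31 against 8.61 to 9.18 with a median of 8.87 (-0.96 ± 0.11, adjusted p = 1.45e-10). In both genes every dosed array lay below every vehicle array.

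ATP5MC1, a gene for the c subunit of the ATP synthase ring, stood at 7.39, 7.74, 7.80, 8.00 and 8.38 against 8.36 to 8.95 with a median of 8.86 (-0.92 ± 0.16, adjusted p = 2.39e-06), with an overlap of 1 dosed and 1 vehicle array. NDUFB10, of the membrane arm of complex I, stood at 9.71, 9.82, 9.84, 9.93 and 10.10 against 10.53 to 10.79 with a median of 10.63 (-0.77 ± 0.07, adjusted p = 1.72e-13). NDUFS7 (-0.86), NDUFA12 (-0.84) and NDUFA5 (-0.77), iron-sulfur and accessory subunits of complex I, fell by 1.5-fold or more too. Among members always named, NDUFV1 (-0.38), SDHA (-0.20), SDHD (-0.40), ATP5F1A (-0.33), ATP5F1B (-0.28) and ATP5PF (-0.22) fell. NDUFS1 (0.12), SDHC (-0.10), COX4I1 (-0.08) and COX5B (-0.13) did not pass.

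The members that rose at MMS 500 µM were NDUFV3 (0.46 ± 0.07, adjusted p = 5.55e-08), NDUFA8 (0.31 ± 0.06, adjusted p = 6.04e-06), COX7A2L (0.30 ± 0.09, adjusted p = 0.00477), COX6A1 (0.18) and NDUFB9 (0.17). NDUFV3 stood at 9.68, 9.68, 9.69, 9.87 and 10.03 against 9.26 to 9.40 with a median of 9.32, and NDUFA8 at 9.64, 9.71, 9.73, 9.89 and 9.90 against 9.32 to 9.53 with a median of 9.50. Neither overlapped its vehicle group. COX7A2L, known as a factor in joining complexes III and IV, was at 10.60, 10.62, 10.77, 10.81 and 10.92 against 10.28 to 10.61 with a median of 10.42, so 1 of the dosed arrays lay at the top of the vehicle range. At 300 µM NDUFV3 (0.34) and NDUFA8 (0.29) had risen already, and NDUFA3 (-0.49) and ATP5F1D (-0.41) were the members with the largest falls.

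**Figure D3:**
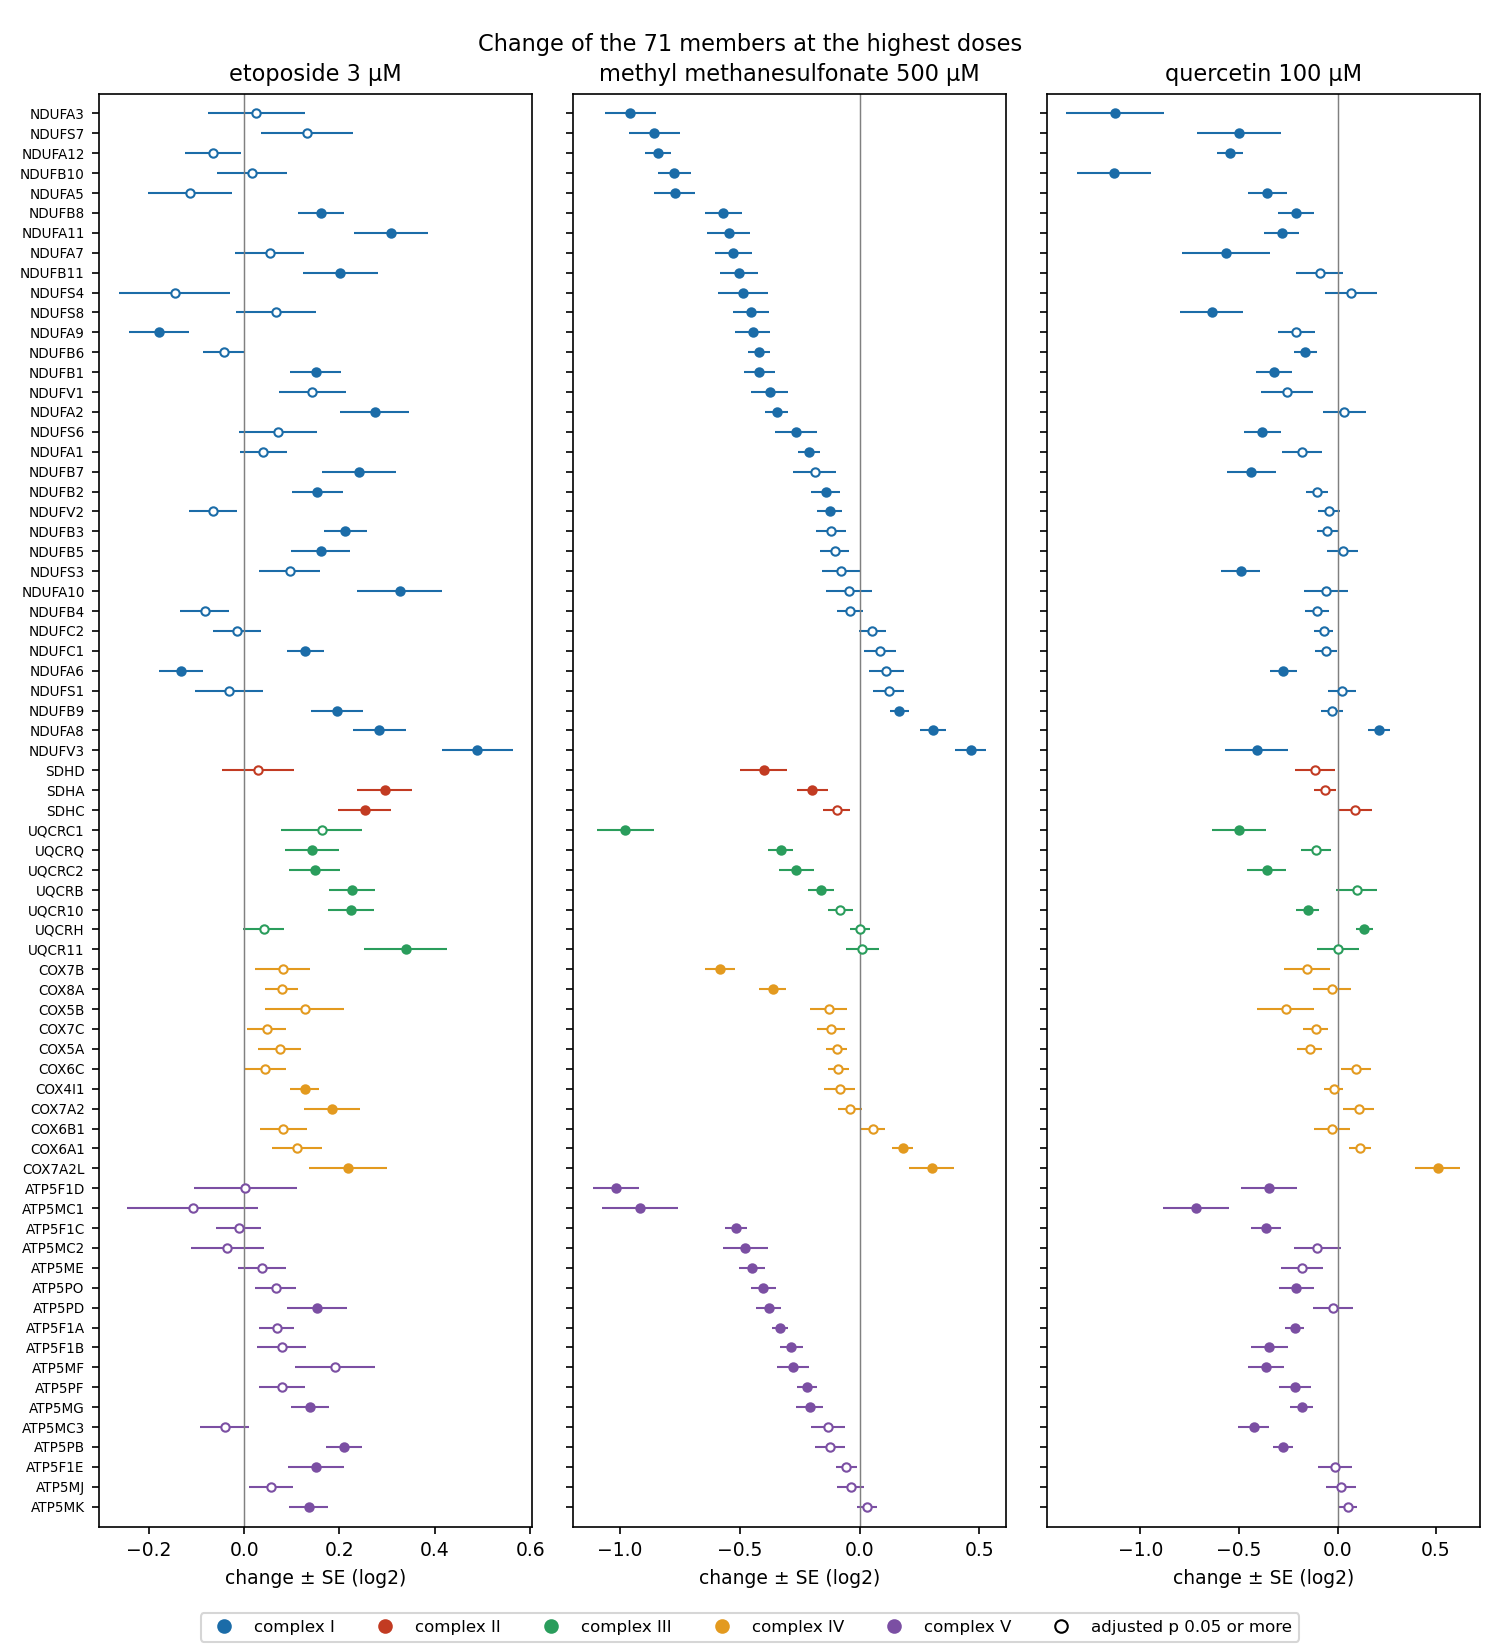
Change (log2, dose minus vehicle, x axis) with its standard error of each of the 71 members (rows, ordered by complex and by the MMS change) at ETP 3, MMS 500 and QUE 100 µM; filled points passed the test. The MMS panel runs from -1.02 for ATP5F1D to 0.46 for NDUFV3, and the ETP panel from -0.18 to 0.49 on its own scale.

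With QUE the fall was in place by 30 µM. At 1 µM 0 of 71 passed (0.0331% of all genes), at 3 µM 0 (0.141%) and at 10 µM 5 fell and 0 rose (1.51% and 2.39%), the falls 8 with a replicate block. At 30 µM 38 fell and 0 rose (18% of all genes in each direction), 7 of them by 1.5-fold (8.64%), with a median change of -0.20 at 30 µM. At 60 µM 37 fell and 2 rose (22.6% and 24.7%), 9 by 1.5-fold (12.7%). At 80 µM 23 fell and 4 rose (22.9% and 23.5%), 3 by 1.5-fold (13.1%). At 100 µM 30 fell and 3 rose (24.7% and 25.8%), 4 by 1.5-fold (14.5%), with a median of -0.15.

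The QUE arrays numbered 3 lay apart at 80 and 100 µM. The member median on number 3 was 0.16 at 80 µM and 0.15 at 100 µM, and on the others -0.28 to -0.04 and -0.30 to -0.11. Its whole response correlated with that of the other numbers at 0.532 and 0.551, the others at 0.72 or more, and its upper quartile was 6.25 and 6.22, against 6.32 to 6.48 and 6.33 to 6.46. Without number 3 in every QUE group 41 members fell at 30 µM, 40 at 60, 34 at 80 and 40 at 100 µM, 9 of the last by 1.5-fold, with a median of -0.19 at 100 µM. In that fit 19.4%, 23.8%, 24.1% and 26.1% of all genes fell at these doses. The part of array quality in the position of number 3 was not tested.

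By complex the medians at 30 µM were -0.30 in complex V (12 of 17 fell), -0.29 in complex I (19 of 33 fell), -0.23 in complex III (4 of 7), -0.13 in complex II (1 of 3) and -0.10 in complex IV (2 of 11). At 100 µM they were -0.21 in complex V (11 fell), -0.21 in complex I (16 fell, 1 rose), -0.11 in complex III (3 fell, 1 rose), -0.06 in complex II (0 passed) and -0.03 in complex IV (1 rose). Without number 3 in any QUE group they were -0.29 in complex V (12 fell), -0.29 in complex I (20 fell, 1 rose), -0.18 in complex III (4 fell, 1 rose), -0.05 in complex II (0 passed) and -0.08 in complex IV (4 fell, 1 rose). The complex IV genes that fell in that fit were COX5A, COX5B, COX7B and COX7C. From 30 to 100 µM 1 member, NDUFA9, rose (by 0.35) and 0 fell (4.87% and 4.03% of all genes), and from 60 to 100 µM 0 moved in either direction (0% of all genes). These steps include number 3 and were not fitted without it. Against vehicle at 100 µM NDUFA9 changed by -0.21 and did not pass. With number 3 left out of every QUE group it fell (-0.30, limma adjusted p = 0.00295). Among genes at the members' vehicle levels 16.4% rose and 25.6% fell at 30 µM, and 21.9% and 33.5% at 100 µM. The F-test over the 7 QUE doses passed 41 of 71 members, beside 56.8% of all genes.

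NDUFB10 stood at 10.00, 10.04, 10.23, 10.36 and 10.36 at QUE 30 µM and at 10.98, 11.22, 11.26, 11.26 and 11.32 in the vehicle group (-1.01 ± 0.19, adjusted p = 6.6e-05), with no overlap. At 100 µM it was at 9.72, 9.82, 9.86, 9.88 and 11.10, the last being number 3, which lay within the vehicle range. The change was -1.13 ± 0.19 (adjusted p = 6.27e-06). With all QUE arrays numbered 3 left out it was -1.38 ± 0.10. NDUFA3 showed the same arrangement, at 8.49, 8.50, 8.53, 8.56 and 8.63 at 30 µM, at 8.12, 8.26, 8.29, 8.75 and 9.84 at 100 µM and at 9.40, 9.83, 9.84, 9.86 and 9.97 in the vehicle group. Its change was -1.24 ± 0.25 at 30 µM (adjusted p = 0.000179), -1.13 ± 0.25 at 100 µM (adjusted p = 0.000298) and -1.40 ± 0.15 at 100 µM without number 3.

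ATP5MC1 fell at QUE 100 µM by 0.72 on the log2 scale (a change of -0.72; 7.68, 7.74, 8.18, 8.33 and 8.98 against 8.74, 8.83, 8.85, 9.04 and 9.05), number 3 being the highest and within the vehicle range. NDUFS8 (-0.64) and NDUFA12 (-0.55) of complex I fell too, and NDUFA12 stood at 11.05, 11.13, 11.20, 11.30 and 11.34 against 11.58, 11.75, 11.77, 11.81 and 11.86 with no overlap. NDUFA7 (-0.56, adjusted p = 0.0335) fell by its probe set with the highest mean, and its other kept probe set rose at 100 µM (0.35), so the probe sets of NDUFA7 disagree. Its call was lost in 10 of 20 alternatives, 6 of them leaving out 1 replicate (numbers 1, 5 and 6 at 100 µM and 3, 4 and 6 of the vehicle; adjusted p = 0.055 to 0.102), with changes between -0.80 and -0.11 over all 20. Of the other members always named, UQCRC1 (-0.50), ATP5F1A (-0.22), ATP5F1B (-0.35) and ATP5PF (-0.21) fell. NDUFV1 (-0.25), NDUFS1 (0.02), SDHA (-0.06), SDHC (0.09), SDHD (-0.11), COX4I1 (-0.02) and COX5B (-0.26) did not pass at 100 µM. With the QUE arrays numbered 3 left out, NDUFV1 (-0.40, adjusted p = 0.00347) and COX5B (-0.36, adjusted p = 0.00906) fell, and the other 5 did not pass. In that fit ATP5MC1 changed by -0.93, NDUFS8 by -0.82, NDUFA7 by -0.79, NDUFS7 by -0.76, UQCRC1 by -0.60, NDUFA12 by -0.58 and ATP5F1B by -0.50. NDUFV3 changed by -0.61 and NDUFS3 by -0.60 there, against -0.41 and -0.49 with all used arrays. SDHA had fallen at 10 and 30 µM (-0.20 at both), beside NDUFA9 (-0.34) and NDUFS3 (-0.33) at 10 µM. With number 3 left out, 0 of 3 complex II members passed at 10 µM, so SDHA no longer did. In complex I 2 of 33 members fell at 10 µM in that fit, and 3 with all arrays.

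COX7A2L rose at QUE 100 µM, from 10.81, 10.85, 10.88, 10.99 and 11.17 in the vehicle group to 11.12, 11.37, 11.47, 11.48 and 11.79 (0.51 ± 0.11, adjusted p = 0.000378), with 1 dosed array inside the vehicle range. NDUFA8 rose from 9.76, 9.89, 9.90, 9.90 and 9.94 to 9.95, 10.04, 10.09, 10.13 and 10.22 (0.21 ± 0.06, adjusted p = 0.00232), with no overlap. Both also rose at 60 and 80 µM, and UQCRH, the hinge subunit of complex III, rose at 100 µM (0.14, adjusted p = 0.00697). COX6A1 rose at 80 µM. Without number 3 COX7A2L (0.43), NDUFA8 (0.25) and UQCRH (0.14) also rose at 100 µM.

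**Figure D4:**
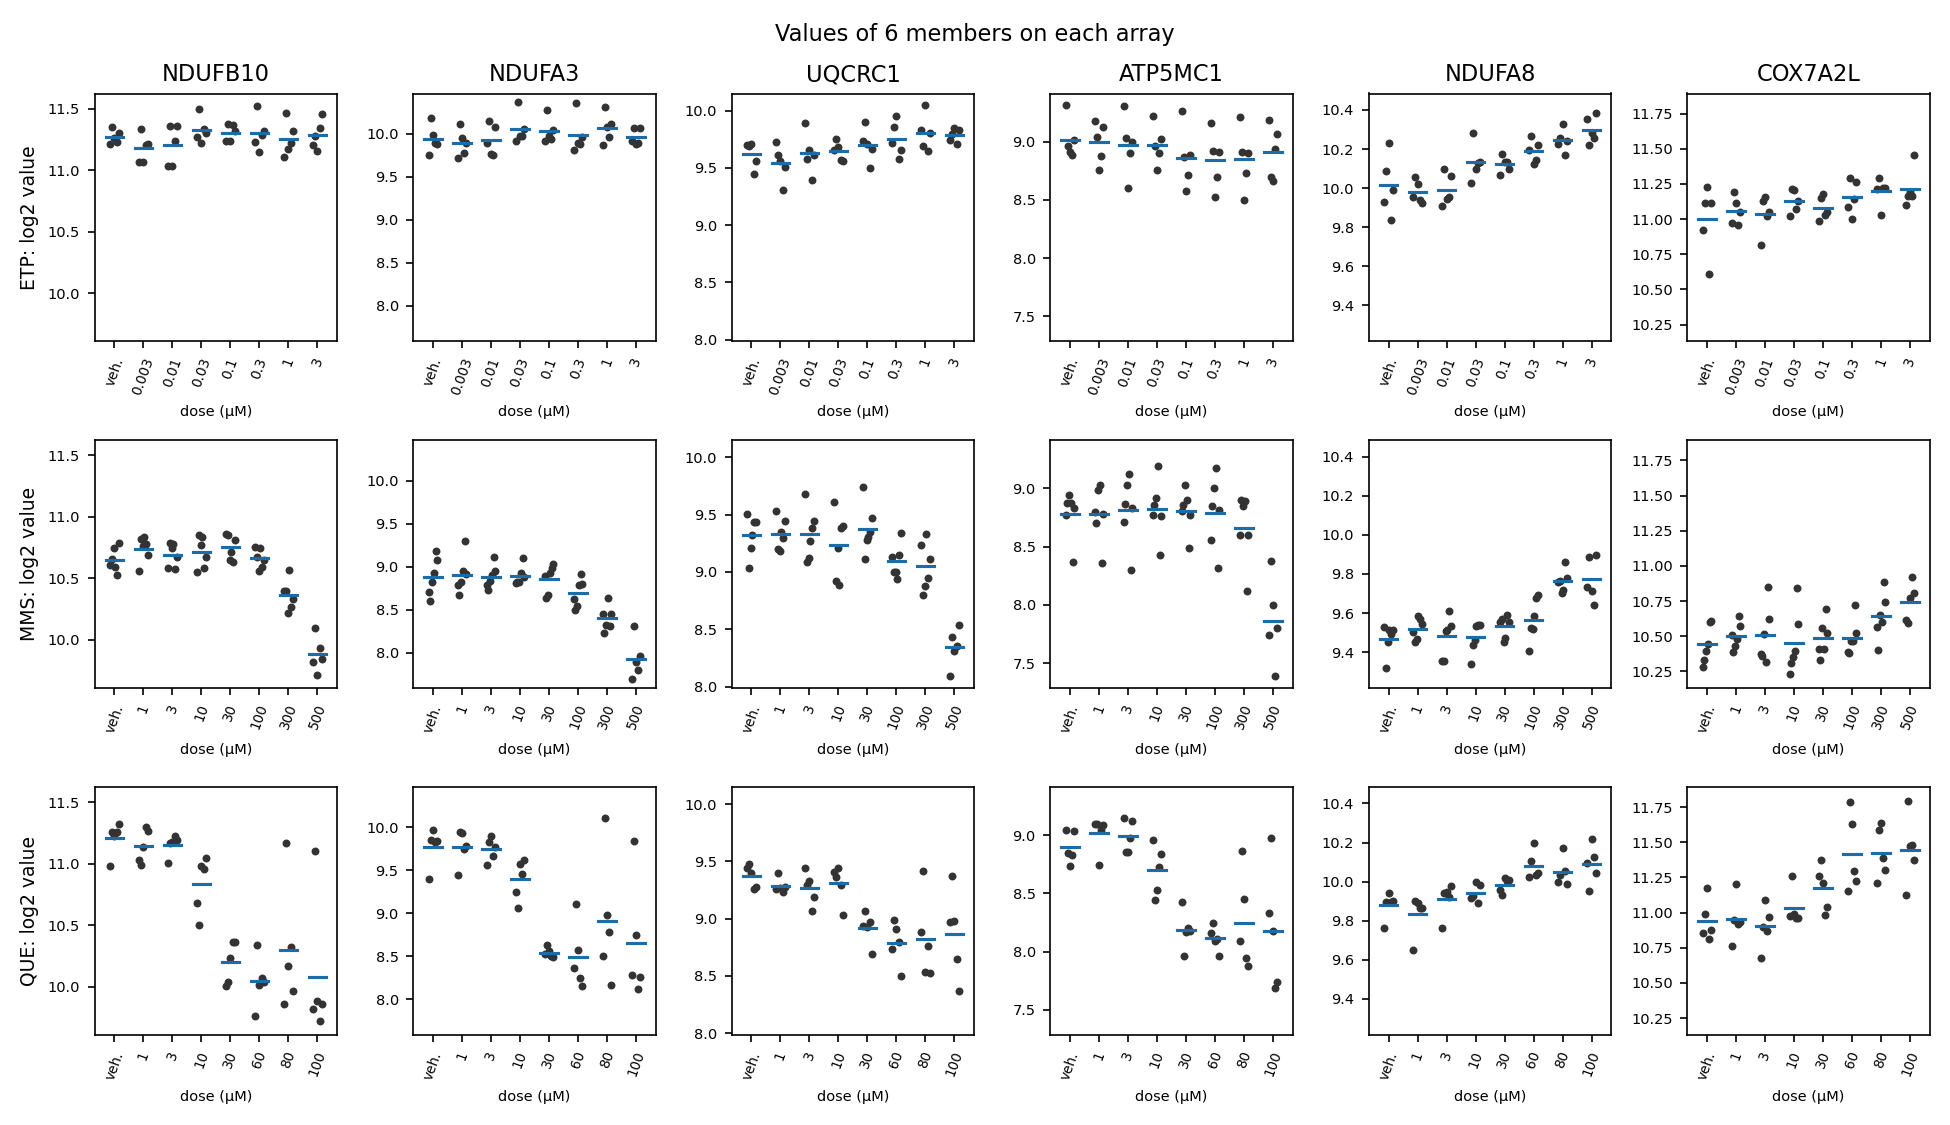
Log2 values (y axis) of 6 members on each array by dose in µM (x axis), in rows for ETP, MMS and QUE; points are arrays (replicates of 1 number averaged), and bars are group means. NDUFB10, NDUFA3, UQCRC1 and ATP5MC1 are lower at MMS 500 µM and from QUE 30 µM, and NDUFA8 and COX7A2L are higher at the highest doses.

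The 3 chemicals were set against each other at their highest doses by the difference between their changes, each against its own vehicle. The ETP change was above the MMS change in 49 members and below it in 1 (20.7% and 25.2% of all genes), and above the QUE change in 36 and below it in 0 (18.1% and 16.9%). The MMS change was above the QUE change in 5 and below it in 17 (22.5% and 19%). Without number 3 in every QUE group the count of ETP above QUE stayed within 1.5 times of 36. The MMS and QUE counts became 12 and 11 in that fit, and 8 and 28 with a replicate block. The shares of all genes were not counted in either of those fits. By complex, ETP lay above MMS in 22 of 33 members of complex I, 3 of 3 of complex II, 6 of 7 of complex III, 5 of 11 of complex IV and 13 of 17 of complex V. These doses do not match in cell effect or concentration, and the test compares only these 3 exposures.

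UQCRC1 differed between ETP and MMS by 1.14 ± 0.17 (adjusted p = 7.69e-09; changes 0.16 and -0.98). NDUFB10 (1.15 ± 0.17, adjusted p = 5.74e-08) and NDUFA3 (1.15 ± 0.24, adjusted p = 4.81e-05) differed most between ETP and QUE. With the QUE arrays numbered 3 left out, these differences were 1.39 ± 0.12 and 1.43 ± 0.17. NDUFV3 was the member on which MMS and QUE lay farthest apart: it rose by 0.46 with MMS and fell with QUE (-0.41, adjusted p = 0.0319), a difference of 0.87 ± 0.15 (adjusted p = 6.86e-07). On the arrays it stood at 8.54, 8.78, 8.87, 9.18 and 9.72 at QUE 100 µM, number 3 the highest, against 9.35, 9.42, 9.42, 9.44 and 9.51. ATP5F1D (-0.67 ± 0.16) and NDUFS4 (-0.55 ± 0.17) were lower with MMS than with QUE, and NDUFS3 (0.41 ± 0.11) and NDUFA6 (0.39 ± 0.09) higher. Without number 3 the NDUFV3 difference was 1.07 ± 0.12, and NDUFB10 (0.60, adjusted p = 5.25e-06) and NDUFA3 (0.45, adjusted p = 0.0262) were also higher with MMS than with QUE.

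Of the members that fell, 23 fell with both MMS and QUE, 57.5% of the 40 that fell with MMS and 76.7% of the 30 that fell with QUE. Over all genes the shares were 50.8% and 56.3%. Without number 3 in any QUE group 30 members fell with both, 75% of 40 and 75% of 40, beside 52.7% and 55.1% of all genes. The 23 include ATP5F1A to ATP5F1D of the catalytic head and stalk of ATP synthase, NDUFS6, NDUFS7 and NDUFS8 of complex I, and UQCRC1 and UQCRC2, the core proteins of complex III. COX7A2L and NDUFA8 rose with all 3 chemicals, 2 of 71 members beside 846 of all 12070 genes. ATP5MG, NDUFA11, NDUFB1, NDUFB8 and UQCRC2 rose with ETP and fell with both others, 5 of 71 beside 122 of 12070. Without number 3 these counts were 2 and 7 members, with NDUFB2 and UQCRQ added to the latter, beside 915 and 135 genes. At none of the 3 highest doses 9 members passed (12.7%, beside 16.1% of all genes), and 6 without number 3 (8.45%, beside 14.7%), when COX5A, COX5B and COX7C fell with QUE. Across the 71 members the MMS and QUE changes correlated at 0.641 (Pearson) and 0.608 (Spearman), beside 0.559 and 0.516 over all genes. ETP correlated (Pearson) with QUE at 0.235, beside 0.435 over all genes, and with MMS at 0.373, not computed over all genes. Without number 3 the MMS and QUE changes correlated at 0.646 and 0.617 (0.543 and 0.501 over all genes), and ETP and QUE at 0.21 (0.417). Genes share the arrays of a fit and are not independent replicates, so this is a description.

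**Figure D5:**
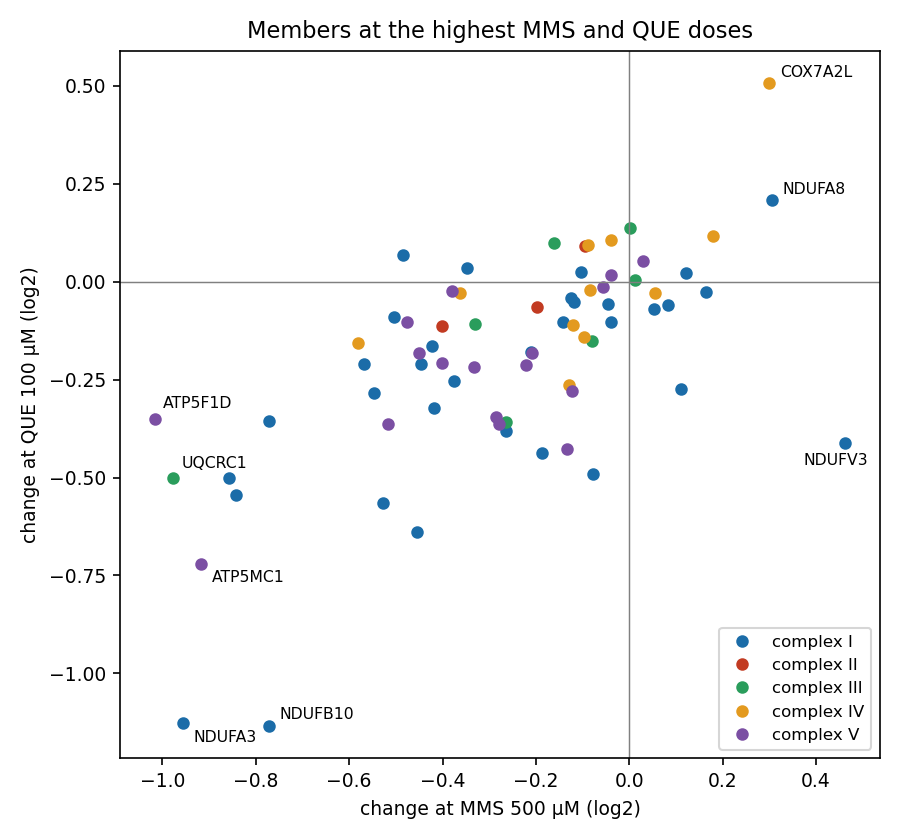
Change of each of the 71 members (log2, dose minus vehicle) at MMS 500 µM (x axis) and at QUE 100 µM (y axis), coloured by complex. NDUFA3 and NDUFB10 lie at the lower left, COX7A2L and NDUFA8 at the upper right, and NDUFV3 at 0.46 and -0.41.

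The probe sets of 7 members are of the type x_at and those of 35 of the type s_at, which can read related transcripts. Of 53 other kept probe sets of the same members, 39 had the sign of the chosen one at MMS 500 µM, 31 at QUE 100 µM and 43 at ETP 3 µM. Where the chosen probe set passed, 15 of 27 other probe sets passed the same way with MMS, 11 of 23 with QUE and 15 of 28 with ETP. Passing the opposite way were 2 with MMS (NDUFA7 and NDUFB2), 2 with QUE (NDUFA7 and UQCR10) and 0 with ETP. The rest did not pass.

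Related genes were counted in lists chosen with earlier results of these data known. Of all genes 33.9% rose and 27.3% fell at MMS 500 µM, 25.8% and 24.7% at QUE 100 µM, and 20.9% and 20.5% at ETP 3 µM. Several of the counts below lie near these shares. Of 9 measured subunits and electron carriers outside the symbol rule, 5 fell and 0 rose at MMS 500 µM, among them CYC1, the cytochrome c1 of complex III (-0.75 ± 0.06), and ETFB, an electron transfer flavoprotein subunit (-0.85 ± 0.11). At QUE 100 µM 5 fell too (CYC1 -0.58, ETFB -0.63, ETFDH -0.99 and ATP5IF1 -0.39 among them), and at ETP 3 µM 2 rose (ETFDH 0.27 and ATP5IF1 0.20). None of the 13 subunits encoded in mitochondrial DNA is analysed here. Of 18 genes for complex I assembly, 8 rose and 7 fell at MMS 500 µM (NDUFAF1 1.08 and NDUFAF3 -1.55), 1 rose and 5 fell at QUE 100 µM (ACAD9 -1.40) and 5 rose and 8 fell at ETP 3 µM (COA1 -0.62). Of 37 genes for assembly of complexes II to V, 18 rose and 8 fell at MMS 500 µM (COX19 1.18, SCO2 1.08 and TMEM70 1.04), 8 and 11 at QUE 100 µM (COX19 1.62 and COX20 -1.10) and 9 and 6 at ETP 3 µM (UQCC1 0.52).

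Of 19 regulators of mitochondrial gene expression, 10 rose and 3 fell at MMS 500 µM (33.9% and 27.3% of all genes), among them MTERF1 (1.53), TEFM (1.11) and ESRRA (0.96). At QUE 100 µM 4 rose and 6 fell (25.8% and 24.7%), and at ETP 3 µM 1 rose and 6 fell (20.9% and 20.5%); the difference between chemicals was not tested for the list. The transcription factor NRF1 fell with all 3: by 0.43 on the log2 scale with MMS, 0.72 with QUE and 0.76 with ETP. PPARGC1B, a coactivator of mitochondrial genes, fell with QUE (-1.08) and ETP (-0.58). Of 16 genes of the TCA cycle and pyruvate dehydrogenase, 3 rose and 8 fell at MMS 500 µM (IDH3A 0.73 and SUCLG2 -1.86), 2 and 7 at QUE 100 µM (PDHB -0.58) and 5 and 2 at ETP 3 µM. Glycolysis genes also fell, 16 of 18 at MMS 500 µM (PKM -1.57 and PDK1 -1.81) and 6 of 18 at ETP 3 µM (HK2 -0.82). At QUE 100 µM 12 of 18 fell and 2 rose (SLC2A1 0.61). Without number 3 in any QUE group SLC2A1 changed by 0.26 (limma adjusted p = 0.0384). Of 12 mitochondrial stress genes, 7 rose and 2 fell at MMS 500 µM. At QUE 100 µM 3 rose and 4 fell (3 and 5 without number 3), and at ETP 3 µM 1 rose and 5 fell. Among them GDF15, a stress-induced cytokine, rose with MMS (1.27), ETP (1.11) and QUE (adjusted p = 5.31e-09). Without number 3 in any QUE group, 5 rose and 4 fell of the complex I assembly genes at QUE 100 µM, 9 and 10 of those for complexes II to V, 3 and 7 of the regulators, 1 and 8 of the TCA cycle genes and 1 and 15 of the glycolysis genes. The counts of the main fit stand beside the shares of all genes given above for each dose and direction. Without number 3, 30.3% of all genes rose and 26.1% fell at QUE 100 µM.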

How the data were processed

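The deposited table gives 54613 probe sets on 145 arrays, as log2 values made by the authors. Per the submitters' processing notes the authors used Partek and GCRMA; per the labels' protocols, RNA was amplified with a 3′ in vitro transcription kit and biotin-labelled. Precision is limited by the number of arrays. The annotation names 1 gene for 40914 probe sets, several for 864 and none for 12835. Probe sets at a log2 value of 4 or more on at least 5 arrays were kept (27102), then the one with the highest mean per gene (12070 genes). ETP and QUE arrays numbered 2 were left out.

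Each dose was compared with its own vehicle in limma 3.58.1 (R 4.3.3, data.table version 1.17.8; lmFit and eBayes with a trend) over the 8 groups of a chemical, with p-values adjusted by Benjamini-Hochberg over 12070 genes. Differences between chemicals were contrasts in 1 fit of all groups. The code was tested on simulated data. The main fits had no replicate block and did not pair arrays. Among the arrays used, replicate numbers recur across the groups of a chemical, except that MMS 500 µM has no number 1. Deviations of same-numbered arrays from their group means were correlated. Every pair was above 0.1 at all ETP doses, MMS 1 to 300 µM and QUE 1 to 30 µM. This did not hold at MMS 500 µM (lowest -0.01) or QUE 60 to 100 µM (lowest 0.06 to 0.07). These correlations were the basis of the replicate block, which was fitted only as an alternative. With the block, rises at ETP 1 µM and falls at MMS 300 µM were more numerous, as given above. Figures used Python 3.11.15, pandas 2.3.3 and matplotlib 3.10.9.

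The members and lists were chosen with earlier results of these data known. Named were, at each highest dose, up to 6 rises and 6 falls past the test, at lower doses up to 2 of each, a set of subunits always named, and, of each other list, up to 4 passed genes with the largest change; further genes were named after their values were seen. Alternatives covered the arrays numbered 2, a replicate block, quantile normalization, the filter, the mean of probe sets, the trend, the size limit, arrays with an extra tag and leaving out each replicate; fits without the QUE arrays numbered 3 or the MMS arrays numbered 4, and the comparisons between doses, were added after seeing the data.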

Additional observations from a re-analysis of the deposited data

Results flagged for a closer look

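In 120 groups of 5 or 6 replicates (16 members at the highest doses and vehicles, and the member median of every group) 9 held an array far from the rest by Dixon's test, where chance gives about 1 in 20. At QUE 100 µM number 3 had NDUFB10 at 11.10 (others 9.72 to 9.88) and ATP5F1B at 11.62 (others 10.87 to 11.07). Number 1 of the QUE vehicle was low for NDUFA3 (9.40, others 9.83 to 9.97) and NDUFA8 (9.76, others 9.89 to 9.94). In the MMS vehicle, number 5 was low for ATP5MC1 (8.36, others 8.77 to 8.95) and number 2 for NDUFA8 (9.32, others 9.45 to 9.53). COX7A2L at ETP 3 µM was high on number 6 (11.46, others 11.10 to 11.20). The member median was -0.0081 on number 4 at MMS 300 µM (others -0.05 to -0.04) and -0.11 on number 1 at QUE 3 µM (others -0.01 to 0.03).

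The chemicals' effects at their highest doses differed, by the test of the difference itself. ETP lay above MMS in 49 members and above QUE in 36, and MMS above QUE in 5 and below it in 17, or in 12 and 11 without the QUE arrays numbered 3.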

How the results depend on the processing

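Of 161 counts recomputed under other settings, leave-one-out aside, 128 stayed within 1.5 times, and of 272 changes of named members 259 stayed past the test; none turned sign. With the number 2 arrays kept, rises were 3 at ETP 1 µM and 12 at 3 µM (median 0.038, 1 fall), falls 0, 20, 15 and 17 at QUE 10, 30, 80 and 100 µM, ETP lay above QUE in 0 members and MMS above QUE in 2. With a replicate block, rises at ETP 1 µM were 29 and falls at 3 µM 4, falls at MMS 300 µM 19 and at QUE 10 µM 8; ETP lay below QUE in 2, and MMS above QUE in 8 and below in 28; the block changed no call of a named member. With the mean of the kept probe sets, rises were 9 at ETP 1 µM, 10 at MMS 500 µM and 5 at QUE 100 µM, and falls at ETP 3 µM 1, as with quantile normalization. With only the 2 groups compared, 19 rose and 0 fell at ETP 3 µM and 19 fell at QUE 100 µM. Falls at QUE 10 µM were 3 without a filter or without the trend and 2 without tagged arrays. At any size, the falls by 1.5-fold became 2, 40 and 30 at ETP 3, MMS 500 and QUE 100 µM. Without the QUE arrays numbered 3, falls by 1.5-fold at 100 µM were 9, and MMS lay above QUE in 12 and below in 11. Leaving out 1 replicate at a time, falls at ETP 3 µM ran from 0 to 2 and falls by 1.5-fold at QUE 100 µM from 3 to 10. NDUFA7 at QUE 100 µM was lost in 10 of 20 alternatives and NDUFA6 at ETP 3 µM in 8 of 19, NDUFA9 in 3, NDUFA11 in 2 and NDUFA10 and NDUFV3 in 1 each. Leaving out the MMS arrays numbered 4 kept every count within 1.5 times. Apart from the main fits and the QUE doses without number 3, shares of all genes were not counted. The number of arrays, 5 or 6 a group, limits the precision.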
